A study of Homo sapiens with 6 samples.

Results

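The genes described here encode the chaperones, disulfide enzymes, stress sensors, degradation factors and translocation proteins of the endoplasmic reticulum (ER), many of which are targets of the unfolded protein response. Members were the genes of a list of 37 symbols with at least 10 counts in 3 or more of the 6 libraries, and all 37 met this rule, of 62754 genes in the deposited table and 20127 genes that met the same count limit. All 37 were also among the 19874 genes that were tested. The count limit removed none of the listed genes, so the list itself sets the members, and it was drawn up with earlier results of these data known.

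The data are RNA sequencing counts from HK-2, a line of human proximal tubular cells of the kidney. All 6 libraries came from cells given Cisplatin, a platinum drug that injures the tubular epithelium, and none came from cells without it, so an effect of the drug cannot be read from these data. The siNC group (3 libraries) was transfected with a negative control siRNA and the siNAT10 group (3 libraries) with an siRNA against NAT10, an RNA acetyltransferase, and the comparison asks what differs when NAT10 is silenced in Cisplatin-treated cells. The labels give no dose or time. The study's methods name a dose and time chosen for its later HK-2 experiments but do not restate them for these libraries. Total counts were 19321665, 21602988 and 19464027 in siNC and 20793709, 21531774 and 25192736 in siNAT10. Levels are given as CPM, the counts of a gene scaled to a common library total, after TMM scaling for differences in composition. A level in CPM is not divided by gene length, so genes are ranked by level only as CPM per kilobase of the gene length given in the table. That length is a single value per gene and need not be that of the mRNA present, so such ranks depend on it. The libraries are bulk RNA, and a lower level per cell and fewer cells that express a gene cannot be told apart.

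Proteins that enter the ER through the SEC61 channel are folded there by chaperones such as BiP, the product of HSPA5, and proteins that fail to fold are moved back to the cytosol and degraded, a process called ER-associated degradation (ERAD). When unfolded proteins accumulate, the membrane sensors IRE1 (ERN1), PERK (EIF2AK3) and ATF6 start the unfolded protein response, in which the transcription factors XBP1, ATF4 and cleaved ATF6 raise the genes of folding and degradation. Tubular epithelial cells make many membrane transporters and receptors through this route, and the response is a known feature of injured tubules.

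NAT10 itself had 75.8, 71.4 and 73.2 CPM in siNC and 41.3, 40.5 and 42.4 CPM in siNAT10, and every siNAT10 library was below every siNC library (log2 fold change -0.82 ± 0.0426, adjusted p = 2.79e-15). Here and below, the value after ± beside a log2 fold change is its standard error, and adjusted p values are from the quasi-likelihood test of edgeR, adjusted over all tested genes by the method of Benjamini and Hochberg. The level in siNAT10 was 56.4% of that in siNC. Of 15 markers of renal epithelium, 11 passed the filter on low counts. At an adjusted p under 0.05, 3 of these were higher and 4 were lower in siNAT10, beside 21.8% and 22.3% of all tested genes. The list summed to 2679, 2712 and 2642 CPM in siNC and 2548, 2547 and 2582 CPM in siNAT10, lower in all 3 siNAT10 libraries. The keratin gene KRT8 was the most abundant of them per length, at 1469, 1465 and 1430.4 CPM in siNC and 1444, 1435 and 1471 CPM in siNAT10, and its groups overlapped. KRT18, the keratin that pairs with KRT8, fell by a log2 fold change of -0.36 (adjusted p = 3.79e-10), and VIM, the gene of vimentin, by one of -0.17 (adjusted p = 5.8e-05). The renal transcription factor gene PAX8 had 30.1, 32.8 and 31.4 CPM in siNC and 42.4, 51.2 and 48.1 CPM in siNAT10 and rose (log2 fold change 0.59 ± 0.0574, adjusted p = 1.58e-09). Among the proximal tubule genes of the list, GGT1, a peptidase gene of the brush border, had 33.0, 33.2 and 33.4 CPM in siNC and 29.1, 25.3 and 27.9 CPM in siNAT10 and fell (log2 fold change -0.28 ± 0.0537, adjusted p = 9.92e-05). SLC5A2, a glucose transporter gene, and AQP1, a water channel gene, were named after their values were seen. SLC5A2 had 9.88, 9.72 and 8.31 CPM in siNC and 11.5, 11.7 and 11.5 CPM in siNAT10, with a log2 fold change of 0.31 (adjusted p = 0.00363), and AQP1 had 1.01, 1.26 and 0.831 CPM in siNC and 0.665, 0.549 and 0.868 CPM in siNAT10, with one of -0.56 (adjusted p = 0.111). The proximal tubule genes LRP2, CUBN, ANPEP and SLC34A1 did not pass the filter, with 3, 23, 19 and 34 counts summed over the 6 libraries. The cells thus carried GGT1 and SLC5A2, while these 4 defining markers of the differentiated proximal tubule were near 0. Of 11 markers of other cell types 2 passed, and that list summed to 209, 199 and 216 CPM in siNC and 288, 266 and 269 CPM in siNAT10. Nearly all of this was CD68, a lysosomal membrane protein gene, at 208, 197 and 215 CPM in siNC and 287, 264 and 267 CPM in siNAT10, which rose in siNAT10 (log2 fold change 0.40 ± 0.0378, adjusted p = 7.97e-10). PTPRC, the leukocyte antigen CD45 and named after its values were seen, had 0.425, 0.467 and 0.363 CPM in siNC and 0.475, 1.33 and 0.671 CPM in siNAT10, a log2 fold change of 0.96 (adjusted p = 0.0411) that was 0.46 (adjusted p = 0.404) without siNAT10 replicate 2. This call was also lost without siNC replicate 1 (adjusted p = 0.0932), siNC replicate 2 (0.0719) or siNC replicate 3 (0.103) and with DESeq2 or limma-voom, within 0.0115 to 0.404 over all alternatives. The distal tubule marker SLC12A3 was at 0 counts. The part of CD68 and of the renal markers in the results below was not tested.

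Of the 37 members, 8 were higher and 15 were lower in siNAT10 at an adjusted p under 0.05. Of all tested genes 44.1% passed at this limit, 21.8% as higher (4331 genes) and 22.3% as lower (4440 genes). This balance depended on the processing, with 5050 higher and 3786 lower with library size scaling, where 9 members were higher and 13 lower, and with 4360 and 4122 without the filter. Among members with a mean of at least 10 CPM 23 of 33 passed, or 69.7%, and among all genes at that level 61.7% passed. The share of genes called rose with level, and the members were counted more deeply than the median gene, with a median of 48.3 CPM against 10.4 CPM. The share of members called is therefore read only beside these backgrounds. All 3 siNAT10 libraries lay above all 3 siNC libraries for 9 members and below them for 15, where the shares over all tested genes were 25.7% and 25.7%. A single member, SEC61B, also passed a limit of 1 on the absolute log2 fold change, where 2.33% of all tested genes did. The median log2 fold change of the members was -0.033, beside 0.007 for all tested genes. With scaling by library size only it was 0.0047, beside 0.0444 for all tested genes. The sign of the members' median thus depended on the scaling, while it lay below that of all tested genes with both. This difference was not tested, and no direction is given for the members as a whole. The plot of fold changes by role shows each member with its error.

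**Figure D1:**
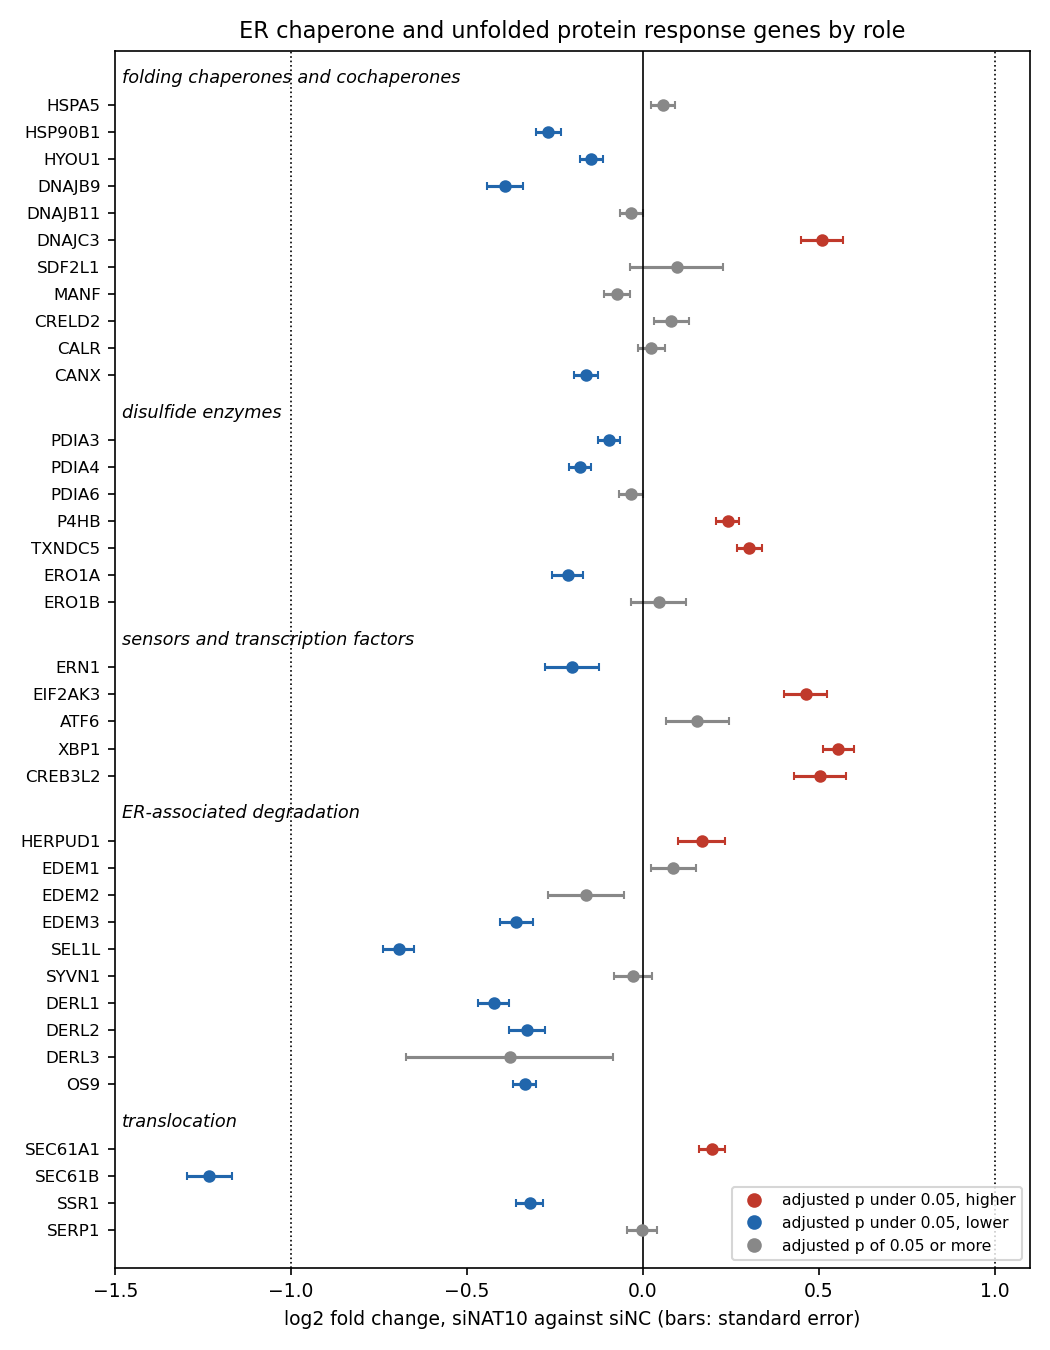
Log2 fold change of each of the 37 members, siNAT10 against siNC, grouped by role, with bars of 1 standard error, dotted lines at a log2 fold change of -1 and 1, and colours for calls at an adjusted p under 0.05. SEC61B at -1.23 is the member beyond the dotted lines, and XBP1 at 0.56 is the highest.

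The sensors and transcription factors held 3 of the 8 higher calls. Of 5 members 3 were higher, 1 was lower and 1 was not called, beside 21.8% higher and 22.3% lower over all tested genes. XBP1 (chr22:28794555-28800569, minus strand, GRCh38), the transcription factor whose mRNA is spliced by IRE1, had 40.7, 43.0 and 44.3 CPM in siNC and 60.8, 63.5 and 63.7 CPM in siNAT10. The lowest siNAT10 library was above the highest siNC library, and the mean level in siNAT10 was 147% of that in siNC (log2 fold change 0.56 ± 0.0444, adjusted p = 2.91e-11). Counts per gene do not separate the spliced from the unspliced XBP1 mRNA, so the activity of IRE1 was not measured. EIF2AK3, the gene of PERK, which phosphorylates eIF2 alpha and lowers translation, had 17.0, 18.1 and 19.7 CPM in siNC and 25.1, 24.9 and 25.5 CPM in siNAT10. Its groups did not overlap either (log2 fold change 0.46 ± 0.0606, adjusted p = 3.15e-07). EIF2AK3 shares its position with 2 genes on the opposite strand, and reads of these genes may be mixed. They are ENSG00000225420, at a mean of 7.17 CPM and a log2 fold change of 0.222, and EIF2AK3-DT, at 2.3 CPM and -0.186. CREB3L2, a membrane-bound transcription factor of the same kind as ATF6 that is cut in the Golgi, had 11.0, 12.2 and 12.3 CPM in siNC and 16.8, 17.7 and 15.9 CPM in siNAT10, again with separate groups (log2 fold change 0.50 ± 0.0739, adjusted p = 1.96e-06).

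ERN1, the gene of IRE1, went the other way. It had 16.1, 16.0 and 16.1 CPM in siNC and 14.7, 12.2 and 15.1 CPM in siNAT10, and the groups did not overlap, with siNAT10 replicate 2 the lowest (log2 fold change -0.20 ± 0.0763, adjusted p = 0.0329). This call was lost without siNAT10 replicate 2, where the log2 fold change was -0.11 (adjusted p = 0.245). It was also lost without each of the 3 siNC libraries, at log2 fold changes from -0.21 to -0.20, with adjusted p from 0.0581 to 0.0742. DESeq2 (-0.21), library size scaling (-0.16) and no filter (-0.19) lost the call too. The adjusted p over all alternatives ran from 0.0125 to 0.245. ATF6 had 7.70, 8.08 and 8.77 CPM in siNC and 9.21, 9.24 and 8.92 CPM in siNAT10, and although every siNAT10 library was above every siNC library, the difference did not pass (log2 fold change 0.16 ± 0.0897, adjusted p = 0.169). The lowest siNAT10 value was close to the highest siNC value for ATF6.

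The 11 folding chaperones and cochaperones were split, with 1 higher, 4 lower and 6 not called. Over all tested genes 21.8% were higher and 22.3% lower. HSPA5 (chr9:125234853-125241382, minus strand), the gene of BiP, had 683, 647 and 676 CPM in siNC and 714, 675 and 698 CPM in siNAT10. The groups overlapped, and the difference did not pass (log2 fold change 0.057 ± 0.0338, adjusted p = 0.179), while scaling by library size only gave 0.095 (adjusted p = 0.0146, and from that value to 0.584 over all alternatives). With 1 library left out its log2 fold change ran from 0.028 to 0.080, the lowest being without siNC replicate 2. HSP90B1 (chr12:103930107-103953931, plus strand), the gene of the chaperone GRP94, had 3185, 2977 and 2965 CPM in siNC and 2502, 2573 and 2502 CPM in siNAT10. All siNC libraries were higher than all siNAT10 libraries, and the mean fell to 83.0% of that in siNC (log2 fold change -0.27 ± 0.0355, adjusted p = 3.64e-07). CALR and CANX encode the lectin chaperones calreticulin and calnexin, which hold newly made glycoproteins. CALR had 1150.4, 1167 and 1065 CPM in siNC and 1111, 1132 and 1196 CPM in siNAT10, with groups that overlapped (log2 fold change 0.024 ± 0.0374, adjusted p = 0.637). CANX had 1199, 1151 and 1111 CPM in siNC and 1019, 1038 and 1037 CPM in siNAT10 and fell in siNAT10 without overlap of the groups (log2 fold change -0.16 ± 0.0341, adjusted p = 0.000281). Calls thus differed between these partners, but a difference between CALR and CANX was not tested.

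HYOU1, which exchanges the nucleotide of BiP, fell from 175 ± 2.91 CPM in siNC to 158 ± 2.60 CPM in siNAT10 (SD, n = 3 per group), with a log2 fold change of -0.15 (adjusted p = 0.000601) and separate groups. Among the J proteins that work with BiP, DNAJB9 fell, with 42.2, 39.2 and 44.4 CPM in siNC and 32.5, 32.8 and 30.7 CPM in siNAT10 (log2 fold change -0.39 ± 0.0518, adjusted p = 3.66e-07). DNAJC3, also called p58IPK and known as an inhibitor of PERK, rose, with 21.4, 18.2 and 20.4 CPM in siNC and 28.3, 28.0 and 28.8 CPM in siNAT10 (log2 fold change 0.51 ± 0.0597, adjusted p = 4.51e-08). Both had groups that did not overlap, and in DNAJC3 all siNAT10 values lay within 28.0 and 28.8 CPM. The other members of this role were not called. DNAJB11 had a log2 fold change of -0.033 (adjusted p = 0.441), MANF of -0.074 (adjusted p = 0.114), CRELD2 of 0.081 (adjusted p = 0.202) and SDF2L1, at 4.02 CPM in siNC, of 0.097 (adjusted p = 0.591). Of these, SDF2L1 was the least precise, with a standard error of 0.133 against 0.0325 for DNAJB11. With 1 library left out, log2 fold changes ran from -0.051 to -0.013 for DNAJB11, 0.046 to 0.12 for CRELD2 and 0.020 to 0.19 for SDF2L1. MANF passed when siNAT10 replicate 1 was left out (-0.10, adjusted p = 0.0475, which ran up to 0.463 over all alternatives).

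**Figure D2:**
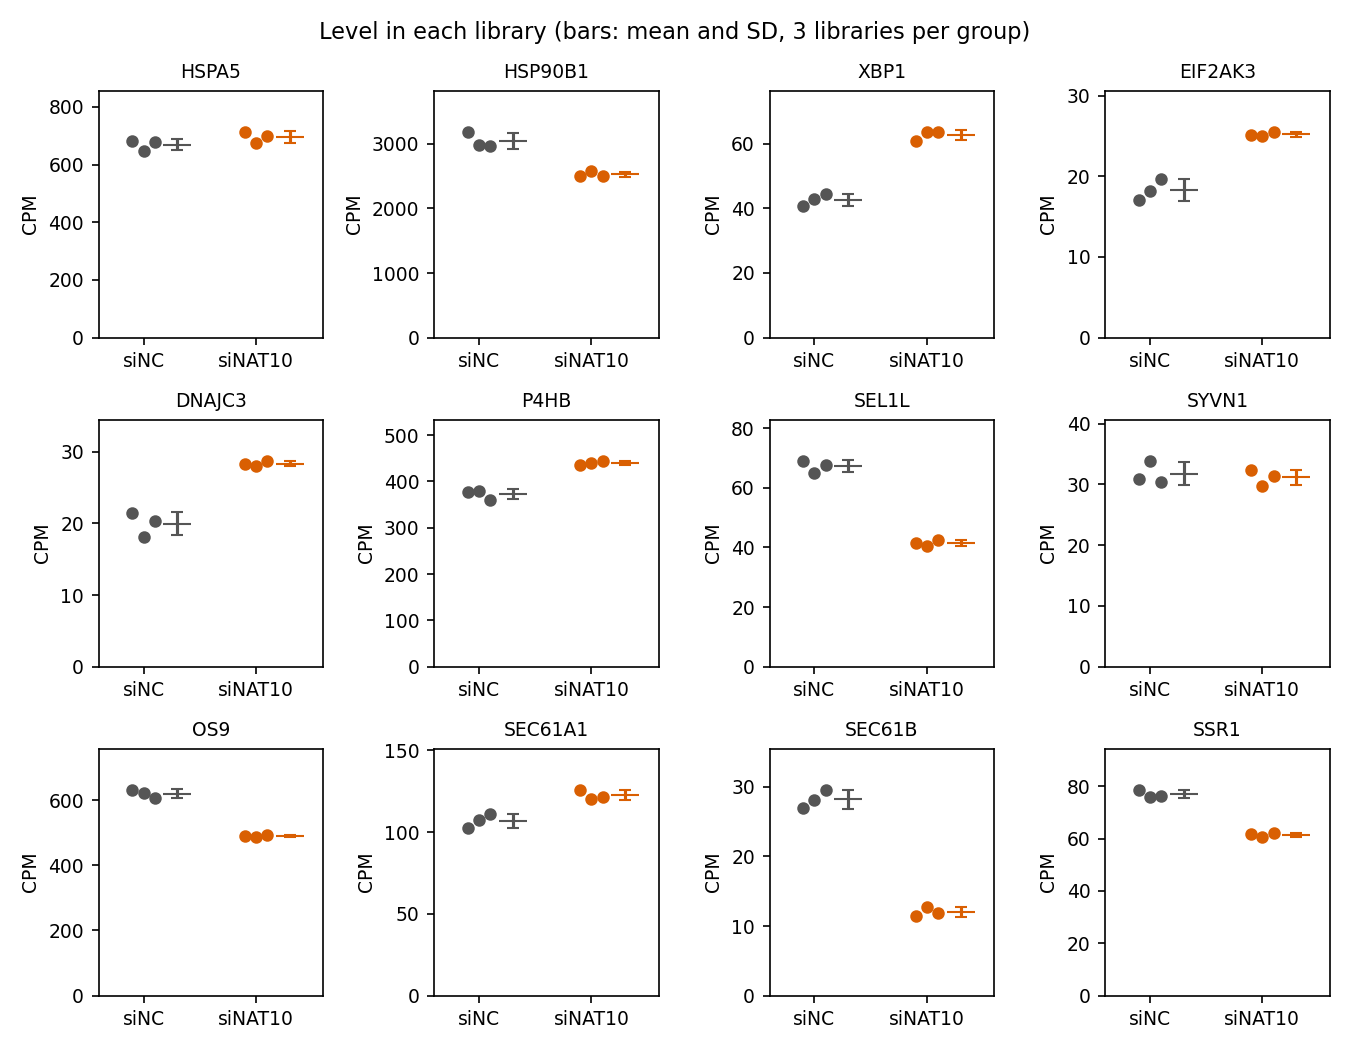
Level of 12 members in CPM (linear axes from 0), with 1 point for each library and the mean with 1 SD beside it (3 libraries per group). HSPA5 and SYVN1 overlap between groups, XBP1, EIF2AK3, DNAJC3, P4HB and SEC61A1 are higher in every siNAT10 library, and HSP90B1, SEL1L, OS9, SEC61B and SSR1 are lower in every one.

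Chaperone genes such as HSPA5 are known to share a promoter element, the ER stress response element (ERSE), whose letters are CCAAT, any 9 bases, then CCACG, and a related element, ERSE-II, with the letters ATTGG, any 1 base, then CCACG. Both were searched on both strands of RefSeq promoter windows (GRCh38.p14, 250 bases before to 50 after each start), which held 34 of the 37 members. DERL1, DERL3 and PDIA3 were not among them. ERSE was found in 9 of the 34 members, beside 0.0916% of all 27305 genes with a window (0.0769% of all 35116 windows), and ERSE-II in 3 members, beside 0.0696% of all genes (0.0541% of all windows). Of 107 genes of the other ER lists below with a window, 0 held either element. The sites of these members are printed so that they can be read beside the fold changes, with the element in capitals and the run given along the gene's own strand. Where the element lies on the other strand, the capitals show its reverse complement (HSP90B1 in its later site, CALR, CRELD2, ERO1B and SERP1 for ERSE, and HYOU1 and SDF2L1 for ERSE-II).
HSPA5, chr9:125241386-125241414, minus strand: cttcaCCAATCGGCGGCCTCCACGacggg
XBP1, chr22:28800598-28800626, minus strand: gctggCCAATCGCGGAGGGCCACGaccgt
HSP90B1, chr12:103930211-103930239, plus strand: cctgaCCAATCGGAAGGAGCCACGcttcg
HSP90B1, chr12:103930316-103930344, plus strand: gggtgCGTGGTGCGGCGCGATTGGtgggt
CALR, chr19:12938379-12938407, plus strand: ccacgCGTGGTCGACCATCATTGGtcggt
CANX, chr5:179698773-179698801, plus strand: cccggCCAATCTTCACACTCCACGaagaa
PDIA6, chr2:10812848-10812876, minus strand: ccggaCCAATGAGCCGCAGCCACGgcttg
CRELD2, chr22:49918549-49918577, plus strand: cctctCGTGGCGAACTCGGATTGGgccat
ERO1B, chr1:236282178-236282206, minus strand: gcccgCGTGGTCCCGCCTCATTGGccgcc
SERP1, chr3:150546705-150546733, minus strand: tcatgCGTGGAGACAGCGAATTGGtgttt
HERPUD1, chr16:56932016-56932044, plus strand: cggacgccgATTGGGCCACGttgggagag
HYOU1, chr11:119057371-119057399, minus strand: gccccgtgaCGTGGTCCAATcccaggccg
HYOU1, chr11:119057265-119057293, minus strand: ggcctgggaCGTGGTCCAATgagtacgcg
SDF2L1, chr22:21642105-21642133, plus strand: cctcggaagCGTGGACCAATcaaaaccct

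The element began 66 bases before the start in HSPA5 and 52 bases before it in XBP1. The 12 members with ERSE or ERSE-II had calls in both directions. Among them 2 were higher (XBP1 and HERPUD1), 3 were lower (HSP90B1, CANX and HYOU1) and 7 were not called, with log2 fold changes from -0.27 to 0.56 and a median of 0.035. The 22 members with a window and neither element had a median of -0.12, with 6 higher, 10 lower and 6 not called. Over all tested genes 21.8% were higher and 22.3% lower, and both counts are read only beside these shares. A related element, UPRE, with the letters TGACGTGG, occurred in 2 of the 34 members (5.88%), in 10 of the 107 genes of the other ER lists (9.35%) and in 0.927% of all genes (0.729% of all windows). These members were HYOU1, where it shares bases with an ERSE-II, and TXNDC5. The element CARE, with the letters TGATGCAA, occurred in 1 member, HERPUD1, in 2 of the 107 other genes (1.87%) and in 1.08% of all genes (0.866% of all windows). Each match is a description of letters in a window and not a site of binding, and a difference between members with and without a match was not tested.

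Of the 7 disulfide enzymes, which form and rearrange disulfide bonds in folding proteins, 2 were higher, 3 were lower and 2 were not called. These counts are read beside the 21.8% higher and 22.3% lower calls of all tested genes. P4HB, the gene of protein disulfide isomerase, had 376, 380.0 and 359.8 CPM in siNC and 435, 439.6 and 445 CPM in siNAT10. Every siNAT10 library was above every siNC library (log2 fold change 0.24 ± 0.0328, adjusted p = 5.48e-07). TXNDC5, another isomerase, had 123, 128 and 129 CPM in siNC and 152, 156 and 160.4 CPM in siNAT10 and also rose without overlap (log2 fold change 0.30 ± 0.0353, adjusted p = 4.33e-08). TXNDC5 shares exons on the same strand with the read-through gene BLOC1S5-TXNDC5, at a mean of 122 CPM and a log2 fold change of 0.27, so reads of both may be mixed and the value is uncertain. PDIA4 had 298, 299 and 302 CPM in siNC and 267, 262 and 265 CPM in siNAT10 and fell, with separate groups (log2 fold change -0.18 ± 0.0317, adjusted p = 3.18e-05). ERO1A, the oxidase that recharges the isomerases, had 51.4, 52.6 and 51.7 CPM in siNC and 43.3, 44.9 and 45.9 CPM in siNAT10 and fell as well (log2 fold change -0.21 ± 0.0436, adjusted p = 0.000181). Its paralog ERO1B was lower in level per length, at 0.899 CPM per kilobase in siNC against 6.88 for ERO1A, and had a log2 fold change of 0.046 (adjusted p = 0.675). PDIA3 had 343, 336 and 330.1 CPM in siNC and 313, 310.2 and 321 CPM in siNAT10, a small fall with separate groups (log2 fold change -0.097 ± 0.0324, adjusted p = 0.0161). The call of PDIA3 was lost without siNAT10 replicate 1 (adjusted p = 0.0502), without siNAT10 replicate 2 (0.0772) and without siNC replicate 1 (0.0523), and with library size scaling or no filter, within 0.0101 to 0.122 over all alternatives. A pseudogene, PDIA3P1, was at 7.58 CPM in siNC and 8.77 CPM in siNAT10 and could share reads with it. PDIA6 was not called, at -0.033 (adjusted p = 0.455), and ran from -0.058 to -0.016 with 1 library left out.

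The 10 ERAD genes had 1 higher call, 5 lower calls and 4 members not called, with a median log2 fold change of -0.33. SEL1L (chr14:81471547-81533853, minus strand), the scaffold of the main ubiquitin ligase complex of the ER membrane, had 69.1, 65.1 and 67.5 CPM in siNC and 41.6, 40.4 and 42.6 CPM in siNAT10. Every siNAT10 library was below every siNC library, at 61.7% of the siNC mean (log2 fold change -0.69 ± 0.0432, adjusted p = 1.61e-13). SYVN1 encodes HRD1, the ligase that SEL1L holds, and had 30.9, 33.9 and 30.4 CPM in siNC and 32.3, 29.8 and 31.4 CPM in siNAT10, with groups that overlapped (log2 fold change -0.029 ± 0.0536, adjusted p = 0.704). The ratio of SEL1L to SYVN1 in CPM was 2.24, 1.92 and 2.22 in siNC and 1.28, 1.35 and 1.36 in siNAT10. The ratio was thus lower in all 3 siNAT10 libraries, a comparison between libraries in which gene length cancels, and it is given as a description chosen after the values were seen. SYVN1 overlaps FAU on the same strand and MRPL49 on the opposite strand, and reads of these genes may be mixed.

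OS9, a lectin that brings glycoproteins to the SEL1L complex, had 632, 620.5 and 606 CPM in siNC and 491, 487 and 494 CPM in siNAT10 and fell without overlap (log2 fold change -0.34 ± 0.0321, adjusted p = 9.86e-10). Among the derlins, which help to move proteins out of the ER, DERL1 had 52.6, 54.4 and 53.8 CPM in siNC and 40.8, 40.5 and 38.7 CPM in siNAT10 (log2 fold change -0.42 ± 0.0441, adjusted p = 5.06e-09). DERL2 had 49.7, 46.6 and 50.1 CPM in siNC and 42.1, 38.1 and 36.5 CPM in siNAT10 (log2 fold change -0.33 ± 0.0512, adjusted p = 4.72e-06). Both were lower in every siNAT10 library. On the opposite strand DERL1 overlaps TBC1D31, with a log2 fold change of 0.007, DERL2 overlaps MIS12, with one of -0.41, and DERL3 overlaps SMARCB1, with one of -0.18. Their values are therefore uncertain, since the strand setting of the counting was not given in the sources used here. DERL3 was read at only 12 to 20 counts per library, or 0.690, 0.934 and 0.883 CPM in siNC and 0.713, 0.549 and 0.671 CPM in siNAT10, and was not called (log2 fold change -0.38 ± 0.295, adjusted p = 0.319). EDEM3, which trims mannose from glycoproteins, had 42.9, 43.6 and 42.8 CPM in siNC and 33.4, 34.8 and 32.6 CPM in siNAT10 and fell with separate groups (log2 fold change -0.36 ± 0.0470, adjusted p = 2.84e-07). Its relatives EDEM1 and EDEM2 were not called, at 0.086 (adjusted p = 0.296) and -0.16 (adjusted p = 0.24), which ran from 0.034 to 0.13 and from -0.22 to -0.080 with 1 library left out.

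HERPUD1, a membrane protein of the ligase complex and a known target of the response, had 15.2, 15.8 and 14.7 CPM in siNC and 17.5, 16.3 and 17.6 CPM in siNAT10. All siNAT10 libraries were above all siNC libraries, but the adjusted p was just under the limit (log2 fold change 0.17 ± 0.0674, adjusted p = 0.0449). It lost the call without siNC replicate 1 (adjusted p = 0.1), siNC replicate 3 (0.164), siNAT10 replicate 1 (0.106) or siNAT10 replicate 3 (0.136), and with DESeq2, upper quartile scaling, no filter or the replicate number as a block, and the adjusted p over all alternatives ran from 0.0157 to 0.19.

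The 4 translocation members included the largest change. SEC61B (chr9:99222064-99230615, plus strand) encodes the beta subunit of the SEC61 channel, through which proteins enter the ER, and had 26.9, 28.2 and 29.6 CPM in siNC and 11.4, 12.7 and 11.9 CPM in siNAT10. Every siNAT10 library was below the lowest siNC library by more than the spread of either group, and the mean fell to 42.5% of that in siNC (log2 fold change -1.23 ± 0.0646, adjusted p = 3.72e-15). Over the alternatives its log2 fold change lay between -1.27 and -1.20. SEC61A1, the gene of the subunit that forms the pore, had 102, 108 and 111 CPM in siNC and 126, 121 and 121 CPM in siNAT10 and rose (log2 fold change 0.20 ± 0.0372, adjusted p = 6.89e-05). The gamma subunit gene SEC61G, named after its values were seen, had 73.6, 69.1 and 72.5 CPM in siNC and 74.0, 72.7 and 74.8 CPM in siNAT10, with groups that overlapped (log2 fold change 0.043 ± 0.0393, adjusted p = 0.409). Its log2 fold change ran from 0.0098 to 0.059 with 1 library left out. The 3 subunits of the channel thus had a lower call, a higher call and no call. The ratio of SEC61B to SEC61A1 in CPM was 0.263, 0.262 and 0.267 in siNC and 0.0905, 0.105 and 0.0981 in siNAT10, a description chosen after the values were seen. SEC61A1 overlaps RUVBL1 on the opposite strand, at a mean of 133 CPM, whereas SEC61B overlapped no other tested gene.

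SSR1, a subunit of the translocon-associated protein complex, had 78.7, 75.8 and 76.2 CPM in siNC and 61.6, 60.7 and 62.2 CPM in siNAT10 and fell without overlap (log2 fold change -0.32 ± 0.0389, adjusted p = 8.06e-08). Of the other subunits of that complex, SSR3 fell, with 88.6, 88.3 and 90.9 CPM in siNC and 63.6, 65.1 and 67.3 CPM in siNAT10 (log2 fold change -0.45 ± 0.0386, adjusted p = 1.23e-10). SSR4 rose, with 26.0, 25.9 and 25.2 CPM in siNC and 28.9, 28.6 and 32.2 CPM in siNAT10 (log2 fold change 0.22 ± 0.0558, adjusted p = 0.00167), and SSR2 had a log2 fold change of 0.12 (adjusted p = 0.0256). SSR2 and SSR4 were named after their values were seen, and the call of SSR2 was lost without siNC replicate 2 (adjusted p = 0.174), siNAT10 replicate 2 (0.0625) or siNAT10 replicate 3 (0.0875) and with DESeq2, within 0.00382 to 0.174 over all alternatives. As in the SEC61 channel, subunits of 1 complex had calls in both directions. SERP1, which stabilises proteins at the translocon, had 49.8, 49.5 and 49.2 CPM in siNC and 47.8, 49.0 and 51.3 CPM in siNAT10 and was not called (log2 fold change -0.0024 ± 0.0437, adjusted p = 0.972). It overlaps EIF2A and SELENOT on the opposite strand, so its value is uncertain too.

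The 3′ UTRs of the members were searched for 3 heptamers, which are GACTATC, the overlapping heptamer ACTATCA, and the heptamer CATATTC. These heptamers were picked earlier from these same libraries because genes that carry them were lower in siNAT10, so lower values of carriers here are not independent evidence. In the longest annotated 3′ UTR of each gene (GENCODE 29), 10 of the 37 members carried at least 1 of them, beside 17.3% of 13080 tested protein-coding genes with a 3′ UTR. The carriers were PDIA3, ERO1B, ATF6, CREB3L2, EDEM3, SEL1L, DERL1, DERL3, SEC61B and SSR1. Among these 10, 1 was higher and 6 were lower, with a median log2 fold change of -0.34, and among the other 27 members 7 were higher and 9 were lower, with a median of -0.029. Over all such genes the median was -0.082 for carriers and 0.031 for the others. Calls over all tested genes were 21.8% higher and 22.3% lower. The sites in the 3′ UTRs of the called carriers with the lowest fold changes, and in that of CREB3L2, which carries all 3 heptamers and rose, are shown with the heptamer in capitals (the site of DERL1 is not shown).
SEC61B, chr9:99230485-99230513, plus strand: aaaagtatagtGACTATCtgttcatgaga
SEL1L, chr14:81476402-81476430, minus strand: atgcaattagaCATATTCagcatatttgt
EDEM3, chr1:184692447-184692475, minus strand: tcccaggtaaaCATATTCttttctgagag
SSR1, chr6:7288610-7288638, minus strand: tgtctttaagcCATATTCtcctacatgta
CREB3L2, chr7:137876638-137876666, minus strand: ccttcaggtgaGACTATCcatagacacat
CREB3L2, chr7:137876131-137876159, minus strand: aaaagtgagccACTATCAgatttgcacat
CREB3L2, chr7:137879884-137879912, minus strand: gggctctcgttCATATTCtcaggccgcaa

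In SEC61B the heptamer began at base 72 of a 3′ UTR of 191 bases, and in SEL1L at base 553 of 5423. Carriers had longer 3′ UTRs, with a median of 3397 bases against 1103 bases in the other members. The lower calls without any of the heptamers included HSP90B1, DNAJB9, DERL2 and OS9. The part of the heptamers, and of 3′ UTR length, in these results was not tested, and neither was a part of the siRNA sequence, which is not given in the sources used here.

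Per length, the members ranged in siNC from 0.220 CPM per kilobase for DERL3 to 402 for CALR. CALR was followed by HSP90B1 at 232, HSPA5 at 102, PDIA4 at 90.8 and CANX at 83.8. This order depends on the gene length used, which was 13092 bases for HSP90B1 and 2802 bases for CALR. Without division by length, HSP90B1 had the higher siNC mean, at 3043 CPM against 1127 CPM for CALR. The sensors were far lower, at 0.884 for EIF2AK3, 0.841 for ERN1 and 0.574 for ATF6. Without division by length, their siNC means were 18.3, 16.1 and 8.19 CPM in the same order. The summed level of the 37 members was 9622, 9322 and 9179 CPM in siNC and 8567, 8602 and 8664 CPM in siNAT10. The siNAT10 sums were lower in all 3 libraries, and of the summed CPM, HSP90B1 alone made up 33.1%, 31.9% and 32.3% of the sum in siNC and 29.2%, 29.9% and 28.9% in siNAT10. Without HSP90B1 the sums were 6437, 6344 and 6214 CPM in siNC and 6065, 6029 and 6162 CPM in siNAT10. These did not overlap with TMM scaling, but with library size scaling they did, where the lowest siNC sum was 6161 CPM and the highest siNAT10 sum 6213 CPM. The sums were not tested. HSP90B1 shares its strand and position with MIR3652, at a mean of 863 CPM and a log2 fold change of -0.37, and DNAJB11 with ENSG00000283149, at 159.8 CPM and -0.064, so reads of these pairs may be mixed.

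**Figure D3:**
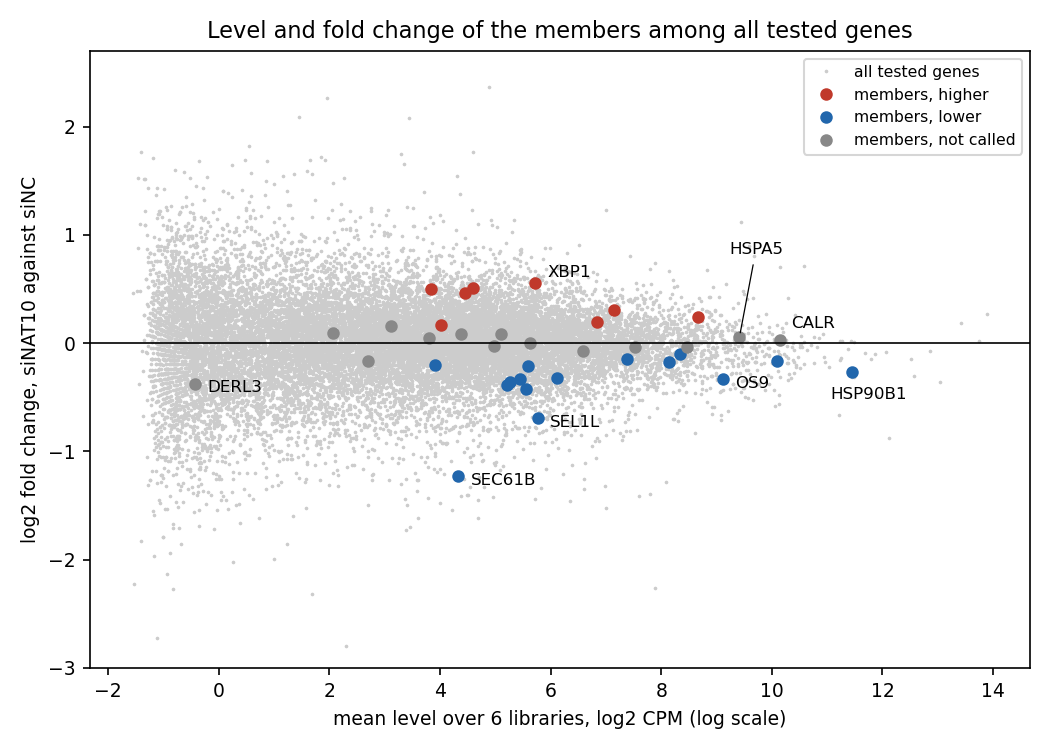
Log2 fold change against the mean level over the 6 libraries (log2 CPM) for all tested genes (grey points) and the 37 members (large points, coloured by call). The abundant members HSPA5 and CALR lie near 0, and SEC61B and SEL1L have the lowest fold changes of the members.

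The remaining genes of ER protein handling were taken as 8 lists with 127 genes, of which 125 were tested. GPX7 and RETREG1 did not pass the filter. Of the 125, 34 were higher, 44 were lower and 47 were not called, with log2 fold changes from -0.93 (FAM8A1) to 0.99 (SIL1). The 78 calls were 62.4% of the 125, and with a mean of at least 10 CPM 73 of 110 were called (66.4%, beside 61.7% of all genes at that level), so the share was near the background. The median was -0.010, beside 0.007 for all tested genes. The counts of the single lists are read beside the 21.8% higher and 22.3% lower calls of all tested genes, and differences between lists were not tested.

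Among 13 further sensors and transcription factors, 4 were higher and 3 lower. ATF4, which is translated when PERK is active, had 261, 246 and 251 CPM in siNC and 199, 196 and 197 CPM in siNAT10 and fell in every siNAT10 library (log2 fold change -0.36 ± 0.0333, adjusted p = 6.38e-10). DDIT3, the gene of CHOP and a known ATF4 target, had 36.0, 33.8 and 35.9 CPM in siNC and 44.4, 42.1 and 44.5 CPM in siNAT10 and rose (log2 fold change 0.31 ± 0.0478, adjusted p = 4.17e-06). CREB3L3, a membrane-bound factor known from liver, rose from 7.76 ± 0.393 CPM in siNC to 14.1 ± 1.03 CPM in siNAT10 (SD, n = 3 per group), and MBTPS2, the site-2 protease that cuts ATF6, fell with a log2 fold change of -0.85 (adjusted p = 1.88e-09). NFE2L1, the most abundant of the list per length as a mean over the 6 libraries, had a log2 fold change of 0.11 (adjusted p = 0.00551). This rank differed by group. NFE2L1 had 88.7 CPM per kilobase in siNC, below ATF4 at 96.8, and 95.8 in siNAT10, above ATF4 at 75.6. ATF3, named after its values were seen, had -0.038 (adjusted p = 0.417), and ran from -0.063 to -0.013 with 1 library left out. Of 8 PERK branch targets and phosphatase subunits, 1 was higher and 2 lower. PPP1R15A, or GADD34, which reverses the phosphorylation by PERK, had 687, 647 and 679 CPM in siNC and 563, 537 and 552 CPM in siNAT10 and fell (log2 fold change -0.28 ± 0.0336, adjusted p = 5.2e-08). PPP1R15B, the constitutive subunit of the same function, was at -0.24 (adjusted p = 4.6e-06) and DDIT4 at 0.23 (adjusted p = 0.00175). The other 5 of the 8, TRIB3, CHAC1, ASNS, SESN2 and EIF2S1, were not called and were named after their values were seen. Their log2 fold changes ran from -0.41 for CHAC1 (adjusted p = 0.34), at a mean of 0.628 CPM, to 0.076 for TRIB3 (adjusted p = 0.666). The called members and targets of the PERK branch thus went in both directions, while most of the listed targets and subunits were not called.

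Of 16 genes of the translocon, signal peptidase and targeting, 5 were higher and 8 lower. SRPRA, the gene of a subunit of the receptor of the signal recognition particle, had 56.8, 54.4 and 57.5 CPM in siNC and 99.7, 100.3 and 100.2 CPM in siNAT10 and rose in every siNAT10 library (log2 fold change 0.83 ± 0.0386, adjusted p = 3.1e-16). The gene of the other subunit, SRPRB, named after its values were seen, fell in every siNAT10 library (log2 fold change -0.15 ± 0.0446, adjusted p = 0.00844). Among the signal peptidase genes SPCS3 and SEC11C fell, by log2 fold changes of -0.46 (adjusted p = 7.74e-12) and -0.65 (adjusted p = 3.85e-09). Of the others, named once their values were known, SPCS1 and SEC11A also fell, by -0.35 (adjusted p = 6.17e-06) and -0.23 (adjusted p = 1.26e-05), and SPCS2 rose, by 0.27 (adjusted p = 3.92e-06). SEC62, with groups that overlapped, was at -0.11 (adjusted p = 0.0113), a call lost without siNAT10 replicate 1 (adjusted p = 0.0513) or 2 (0.0764) and with library size scaling, within 0.00251 to 0.0767 over all alternatives. Of 16 genes of N-glycosylation and glycan trimming, 5 were higher and 5 lower. GANAB, the catalytic subunit of glucosidase II, which lets glycoproteins enter the calnexin cycle, had 61.7, 65.6 and 64.2 CPM in siNC and 117, 120.0 and 122 CPM in siNAT10 (log2 fold change 0.91 ± 0.0383, adjusted p = 3.59e-17). It was higher in every siNAT10 library, at 187% of the siNC mean. The gene of the other subunit of glucosidase II, PRKCSH, named after its values were seen, was lower in every siNAT10 library (log2 fold change -0.19 ± 0.0334, adjusted p = 2.51e-05). TUSC3 and MAGT1 are alternative subunits of the oligosaccharyltransferase. TUSC3 fell, with 20.7, 21.7 and 19.5 CPM in siNC and 11.7, 10.6 and 12.2 CPM in siNAT10 (log2 fold change -0.84 ± 0.0719, adjusted p = 1.08e-10). MAGT1 rose, with 19.4, 21.3 and 21.0 CPM in siNC and 27.0, 27.0 and 25.8 CPM in siNAT10 (log2 fold change 0.37 ± 0.0571, adjusted p = 4.39e-06). The catalytic subunit STT3B was at -0.44 (adjusted p = 2.65e-09) and its paralog STT3A, named after its values were seen, at 0.15 (adjusted p = 0.0012), while RPN1 was not called at 0.062 (adjusted p = 0.169) but was called at 0.10 with library size scaling (adjusted p = 0.0198, up to 0.735 over all alternatives). RPN1 ran from 0.019 to 0.089 with 1 library left out.

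Of 26 other folding enzymes and cochaperones tested, 8 were higher and 9 lower. SIL1, a nucleotide exchange factor of BiP like HYOU1, had 4.89, 5.61 and 5.30 CPM in siNC and 10.7, 10.1 and 10.7 CPM in siNAT10 and rose (log2 fold change 0.99 ± 0.0963, adjusted p = 1.3e-09). PRDX4, a peroxiredoxin of the ER, rose to 152% of its siNC mean (0.60 (adjusted p = 4.79e-11) in log2 fold change). ERP29 and FKBP2 fell, at -0.39 (adjusted p = 1.12e-10) and -0.36 (adjusted p = 4.67e-08). Of 23 other ERAD components, 1 was higher and 10 were lower, with a median log2 fold change of -0.009. FAM8A1, a cofactor of HRD1, had 20.3, 22.1 and 22.3 CPM in siNC and 10.8, 11.2 and 12.0 CPM in siNAT10 and fell without overlap (log2 fold change -0.93 ± 0.0697, adjusted p = 8.52e-12). ERLIN2, SELENOK and UFD1 were at -0.49 (adjusted p = 1.68e-07), -0.27 (adjusted p = 4.19e-06) and -0.25 (adjusted p = 4.49e-05), and UBXN4 was not called at 0.033 (adjusted p = 0.479). The single higher gene was RHBDD1 at 0.69 (adjusted p = 0.000599), and the ATPase gene VCP was not called at 0.018 (adjusted p = 0.689), both named after their values were seen. UBXN4 ran from 0.0031 to 0.063 and VCP from 0.0007 to 0.033 with 1 library left out. Over the 8 lists, 24 of 125 genes with a 3′ UTR carried at least 1 of the heptamers, of which 6 were higher and 14 lower, with a median log2 fold change of -0.158. The other 101 had 28 higher and 30 lower calls and a median of -0.005. Since the heptamers were picked from these libraries for lower values of their carriers, this is no independent evidence. These carriers included FAM8A1, ERLIN2, LMAN1 and MCFD2, which fell, and SEC31A and STT3A, which rose, and the part of the heptamers was not tested.

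Of 13 genes of retrieval and export, 9 were higher and 3 lower. SEC31A, of the COPII coat that buds from the ER, had 177, 179 and 176 CPM in siNC and 245, 249 and 246 CPM in siNAT10 (log2 fold change 0.48 ± 0.0321, adjusted p = 8.87e-13), and SEC24D was at 0.41 (adjusted p = 4.23e-07). LMAN1 and MCFD2, which form a cargo receptor for glycoproteins, both fell, LMAN1 with 268, 268 and 259 CPM in siNC and 196, 202 and 203 CPM in siNAT10 (log2 fold change -0.40 ± 0.0328, adjusted p = 4.37e-11) and MCFD2 at -0.29 (adjusted p = 2.11e-08). The 3 KDEL receptors, which return chaperones such as BiP to the ER and were named after their values were seen, were at -0.13 (adjusted p = 0.0121) for KDELR1, 0.18 (adjusted p = 0.000267) for KDELR2 and 0.49 (adjusted p = 5.05e-05) for KDELR3. The call of KDELR1 was lost with library size scaling and without siNC replicate 2 (adjusted p = 0.0687, within 0.00927 to 0.0833 over all alternatives). Of 10 tested genes of ER-phagy receptors and membrane proteins, 1 was higher and 4 lower. ATL3, which shapes ER tubules, was at 0.46 (adjusted p = 2.03e-10), CALCOCO1 at -0.36 (adjusted p = 4.3e-09), CCPG1 at -0.27 (adjusted p = 2.99e-07) and RTN3 at -0.23 (adjusted p = 0.000566), and TMBIM6 was not called at -0.0053 (adjusted p = 0.923).

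**Figure D4:**
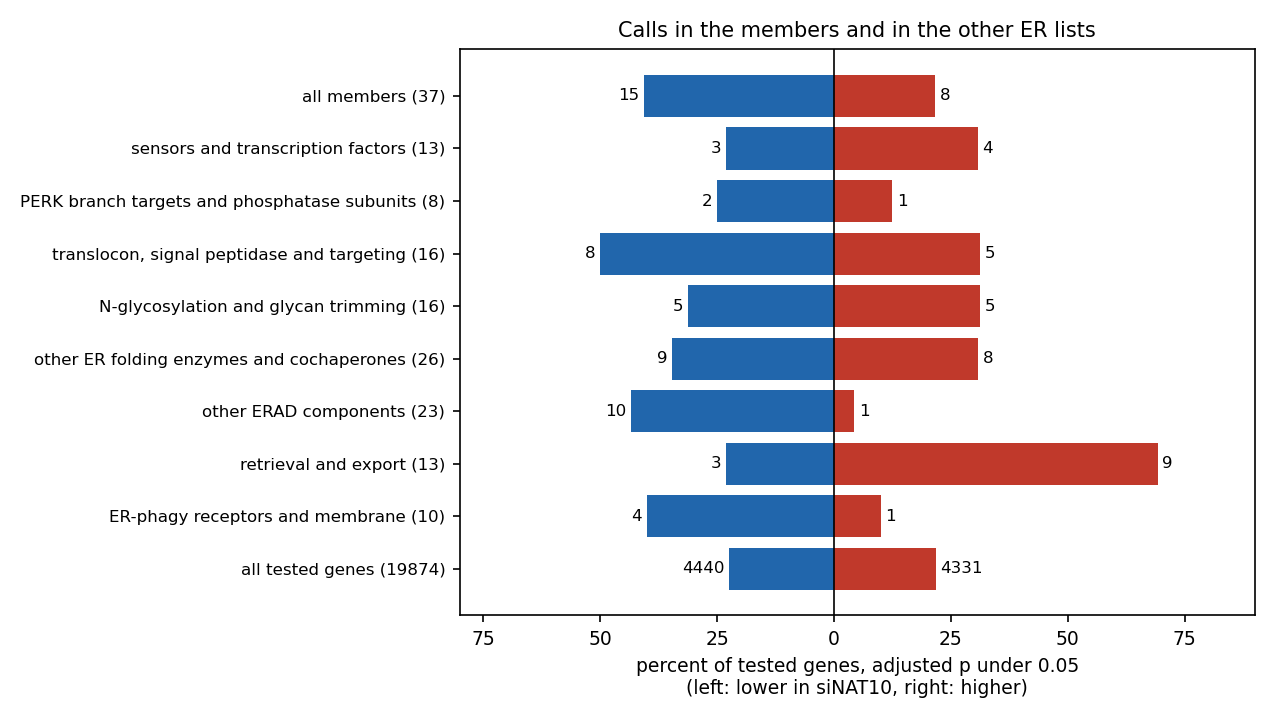
Percent of the tested genes of each list with an adjusted p under 0.05, lower in siNAT10 to the left and higher to the right, with the counts at the bars and the tested genes in brackets. The members have 15 lower and 8 higher calls, other ERAD components 10 and 1, and retrieval and export 3 and 9. The last bar gives all tested genes, with 4440 lower and 4331 higher.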

How the data were processed

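RNA of 6 libraries, siNC and siNAT10 in 3 each, was counted per gene by the authors, and the deposited values are raw counts from featureCounts with gene names, positions and lengths. The submitters' processing notes name Trimmomatic 0.36, STAR 2.5.3a, Subread 1.5.1, edgeR 3.12.1 and GRCh38. The study describes RPKM as its normalised unit, but the deposited file holds counts. The library kit is stranded and adds molecular identifiers, which the study says serve to correct for duplicates. The strand setting of the counting, the annotation release and whether the deposited counts were merged by identifier are not given in the sources used here. Groups and replicate numbers came from the labels, and no sample was left out.

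The counts were tested with edgeR 4.0.16 in R 4.3.3. The filter filterByExpr (minimum count 10, minimum total 15) kept 19874 of 62754 genes and at least 99.79% of the counts of each library, TMM scaled the libraries, and glmQLFit and glmQLFTest compared the groups with Benjamini-Hochberg adjustment over the tested genes. The procedure was tested on simulated counts. The replicates are labelled only as cells 1 to 3, nothing says that they were separate cultures, and p-values measure the spread between these samples, which may be technical. The biological coefficient of variation was 3%, and genes near 1 CPM, such as DERL3, had wide errors. Gene positions overlapped GENCODE 29 (GRCh38) for all 37 members. Of the members, 22 overlapped another tested gene.

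Alternatives, whose effect is given at the end, were RLE, upper quartile and library size scaling, no filter and a filter of at least 10 counts in 3 libraries, the replicate number as a block, DESeq2 1.42.0, limma-voom with limma 3.58.1 and leaving out each library. Library size scaling of the summed level without HSP90B1 was chosen after seeing the data. The members and lists were chosen with earlier results of these data known, and 1 further marker of other cell types, outside the 11 counted, is not reported here. Genes named by rule were NAT10, the members, and from each other list up to 4 with the smallest adjusted p among those with an adjusted p under 0.05, a mean of at least 5 CPM and groups that do not overlap, plus the most abundant per length. Further tested genes of these lists were named after their values were seen, as is said where they appear. Some listed genes that did not pass the filter were named as well. Python 3.11.15, numpy 2.4.6, pandas 2.3.3 and matplotlib 3.10.9 were used for tables, motif searches and plots.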

Additional observations from a re-analysis of the deposited data

How the results depend on the processing

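Over the 14 alternatives the counts of members called stayed within 1.5 times those reported, with 1 member, SEC61B, past both limits in each. With the replicate number as a replicate block, 7 members were higher and 15 lower, HERPUD1 losing its call. Same-numbered samples deviated with correlations of 0.00808, 0.0639 and -0.205, and samples with different numbers with correlations from -0.217 to 0.198. These values cannot show whether same-numbered samples were handled together, and the labels state no pairing. The median log2 fold change of the members was 0.0047 with library size only, beside 0.0444 for all tested genes. It ran from -0.062 to -0.037 when 1 library was left out, beside 0.0027 to 0.0063 for all tested genes. Called members that lost the call under some alternative were PDIA3, ERN1 and HERPUD1, and HSPA5 and MANF gained one. Values near 0 changed sign, none of them called in either fit. With library size only, DNAJB11 was 0.0050, PDIA6 0.0047, SYVN1 0.0089, SERP1 0.035, TMBIM6 0.033 and KRT8 0.033. Without the filter, SERP1 was 0.0089, TMBIM6 0.0060 and KRT8 0.0068. With 1 library left out, CALR ranged from -0.019 to 0.047, ERO1B from -0.037 to 0.10, SYVN1 from -0.062 to 0.019, SERP1 from -0.031 to 0.020, TMBIM6 from -0.044 to 0.022 and KRT8 from -0.020 to 0.0040. The cause of these changes was not tested. DERL3 and SDF2L1 had the largest standard errors of the members, 0.295 and 0.133.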
